A study of Homo sapiens with 6 samples.

Results

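The 8 genes described here, DAZAP2, MBNL2, TXNIP, CD44, DKK1, BTG1, TNFAIP1 and MBD2, have been published as targets of the microRNA family that takes in miR-302, miR-372, miR-373 and miR-520. They were taken by symbol from a table of 12396 named genes, and all 8 were present. RNA-seq compared JHH-4 cells with hsa-miR-372-3p overexpressed through a pri-miRNA plasmid (miR372_3p, 3 libraries) with JHH-4 cells labelled WT (Control, 3 libraries). The sources used here do not say what plasmid, if any, the Control cells carried. JHH-4 is an established line of human hepatocellular carcinoma, grown in EMEM with serum. The series calls the replicates technical, so p-values measure only the spread between these libraries.

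A microRNA guides an Argonaute protein to messenger RNAs whose 3′ UTR pairs with its seed, bases 2 to 8 from its 5′ end, and the bound message is translated less and degraded sooner. This family is known from pluripotent stem cells, germ cell tumours and placenta, and its reported targets include brakes on proliferation, regulators of Wnt and TGF-beta signalling and binders of methylated DNA. The 8 genes were described in different cell types, so each asks whether a message reported as a target elsewhere was lower in hepatocellular carcinoma cells when miR-372-3p was raised. The level of miR-372-3p itself was not analysed here.

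The mature sequences of 4 family members are shown because their seed defines the sites searched for. That of miR-17-5p, from a neighbouring family, is shown for comparison. All are RefSeq sequences (GRCh38.p14), printed 5′ to 3′ with the seed in capitals.
miR-372-3p: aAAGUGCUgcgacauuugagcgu
miR-373-3p: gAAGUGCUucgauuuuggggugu
miR-302a-3p: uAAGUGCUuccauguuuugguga
miR-520c-3p: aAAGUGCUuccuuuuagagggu
miR-17-5p: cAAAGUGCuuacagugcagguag
The seed AAGUGCU of miR-372-3p was shared by 12 human mature microRNAs of the reference. Another 8, miR-17-5p among them, carried AAAGUGC, in which the stretch AAGUGC of that seed is displaced by 1 base. A message with a match to the seed of miR-372-3p is therefore a candidate for the whole family. The miR-372 hairpin lies on chromosome 19 and also gives miR-372-5p, whose seed CUCAAAU is unrelated.

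Matches to the seed were sought in the longest annotated 3′ UTR of each protein-coding gene (GENCODE 29, GRCh38). The forms were AGCACTTA (the 8mer, pairing with bases 2 to 8 and followed by A), AGCACTT (7mer-m8), GCACTTA (7mer-A1) and GCACTT (6mer). All 8 genes held a match, 7 of them an 8mer or a 7mer-m8, and the windows of 30 bases that end just past the seed match are given here because they hold the strongest class of match in each gene. For MBD2, TXNIP and TNFAIP1 every 8mer and 7mer-m8 is shown. A 7mer-A1 of DAZAP2, 1242 nt after its stop codon, and the 6mers are not printed. Capitals mark the match.
BTG1 (8mer), chr12:92143598-92143627, minus strand: aaattttacaagacttttacctAGCACTTA
CD44 (8mer), chr11:35232327-35232356, plus strand: atatgtatattgctgagttgaaAGCACTTA
MBD2 (first 8mer), chr18:54155022-54155051, minus strand: aggtgcaatctactggaaatgtAGCACTTA
MBD2 (second 8mer), chr18:54152484-54152513, minus strand: tctgatttcccgttacagccccAGCACTTA
MBD2 (7mer-m8), chr18:54152097-54152126, minus strand: actttgtaaatacctccatggaAGCACTTt
DAZAP2 (7mer-m8), chr12:51242482-51242511, plus strand: gggaaagacatcacataccttcAGCACTTc
TXNIP (first 7mer-m8), chr1:145993050-145993079, minus strand: ttgattctaaggtgatgttcttAGCACTTt
TXNIP (second 7mer-m8), chr1:145992680-145992709, minus strand: ttggcccctcactgcagctgccAGCACTTg
TXNIP (last 7mer-m8), chr1:145992653-145992682, minus strand: ttggtcagtcactctcagccatAGCACTTt
TNFAIP1 (first 7mer-m8), chr17:28344763-28344792, plus strand: acattcccctgccttgcccctgAGCACTTc
TNFAIP1 (second 7mer-m8), chr17:28345163-28345192, plus strand: cctgtgggatctgtttctttaaAGCACTTt
MBNL2 (7mer-m8), chr13:97393897-97393926, plus strand: ctcttggttttcaggatataacAGCACTTc
DKK1 (7mer-A1), chr10:52317002-52317031, plus strand: ctgtattgtaaattctcagtgtgGCACTTA

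Of 12192 genes whose 3′ UTR could be searched, 4.05% held an 8mer and 25.5% an 8mer or a 7mer-m8, so single matches are common. MBD2 stood out among the 8 with 2 copies of the 8mer and 1 7mer-m8, and TXNIP with 3 copies of the 7mer-m8. At least 2 matches that were 8mers or 7mer-m8 were present in 7.49% of searched genes. The 12 matches in the 8 genes that were 8mers (4) or 7mer-m8 (8) lay in flanks (30 bases on each side) of 38.3 to 75.0% A and T, with a median of 60.0%, against 46.7% over all 4543 such matches in the searched 3′ UTRs. The duplex of each 30-base window with miR-372-3p had a predicted free energy from −16.5 kcal/mol at the first MBD2 site to −10.1 kcal/mol at the second TNFAIP1 site. The median was −13.9 kcal/mol, against −16.7 kcal/mol over all such matches. Of all these matches, 41.4% lay in 1 recurrent sequence that none of the 12 had, and outside it the medians were 60.0% and −14.2 kcal/mol.

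**Figure D1:**
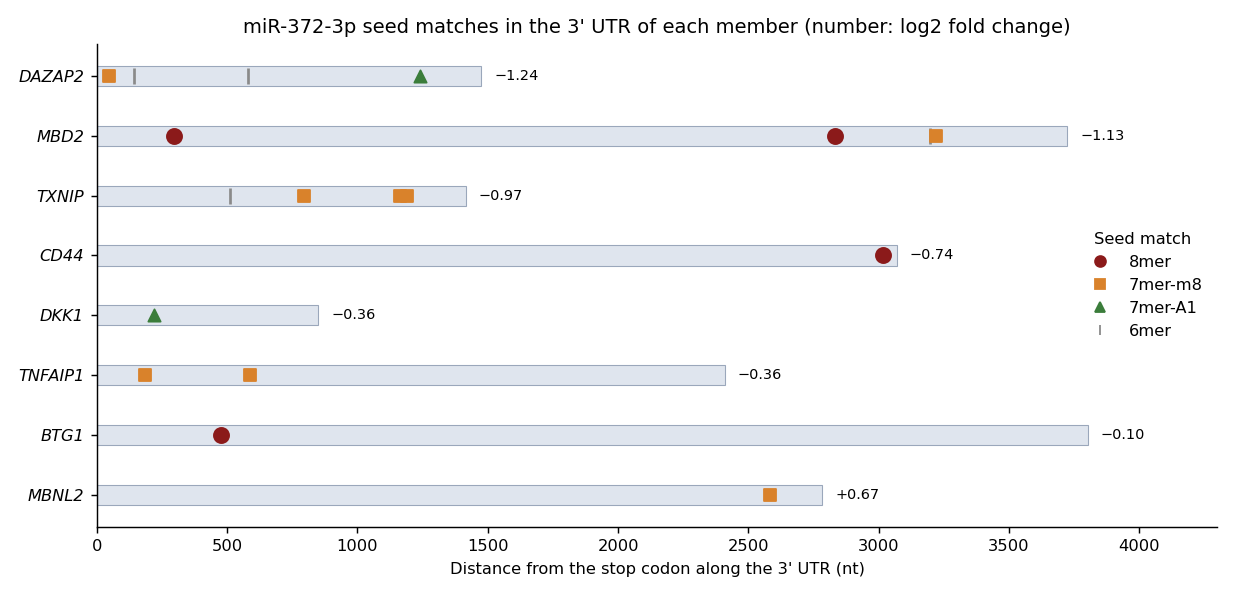
Map of the 3′ UTR of each gene, with distance from the stop codon in nucleotides on the x axis and the genes in order of their log2 fold change, printed at the end of each bar. The 8mers are circles, 7mer-m8 squares, 7mer-A1 triangles and 6mers grey ticks. Positions are those of the core GCACTT. In CD44 the core of the 8mer ends 47 nt from the end of a 3′ UTR of 3069 nt. In DAZAP2 the core of the 7mer-m8 begins at base 47 after the stop codon.

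The position of the matches differed. Distances here are those of the core GCACTT within each match. In DAZAP2 the core of the 7mer-m8 began at base 47 of a 3′ UTR of 1475 nt. In BTG1 the core of the 8mer began at base 476 of 3802. In CD44 the core of the 8mer ended 47 nt before the end of the longest 3′ UTR. Only 2 of 12 annotated coding transcripts with a complete end held this 8mer. An 8mer or 7mer-m8 was in 1 of 3 such transcripts of MBD2, 1 of 2 of TXNIP, 5 of 8 of DAZAP2, 4 of 5 of MBNL2, and in each of the 2 of TNFAIP1 and the single one of BTG1. Gene counts cannot tell these transcripts apart. The 7mer-m8 was also present in the coding sequence of CD44, MBNL2 and TNFAIP1 (12.3% of searched genes), and a match to miR-372-5p, ATTTGAG, in the 3′ UTR of MBNL2 alone among the 8 genes (18.6% of searched genes).

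With miR-372-3p overexpressed, 6 of the 8 genes fell, against 27.7% of all genes tested, 1 rose, against 26.8%, and 1 did not pass the test. DAZAP2 and MBD2 fell most, to 42.2 and 45.8% of the control level, followed by TXNIP at 51.0%, CD44 at 59.7%, DKK1 at 77.8% and TNFAIP1 at 78.0%. MBNL2 rose to 159% of the control level. BTG1 was at 93.3%. In the same 6 genes all miR372_3p libraries lay below all Control libraries, against 31.4% of all genes, and in MBNL2 all lay above, against 30.7%. DAZAP2 and MBD2 fell by more than 2-fold, as did 3.20% of all genes. The median log2 fold change of the 8 was −0.55, against 0.0012 over all 12396 genes.

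**Figure D2:**
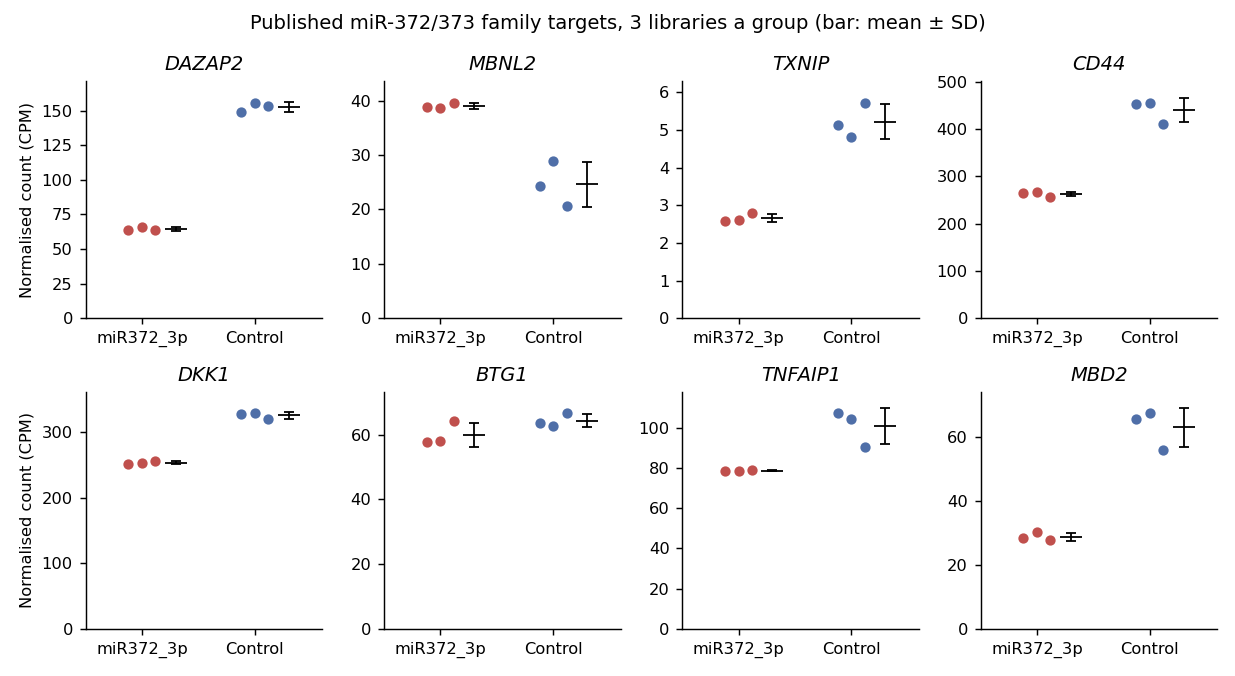
Normalised counts (CPM, y axis from 0) of the 8 genes in each library, miR372_3p on the left and Control on the right of each panel, with the mean and SD as a bar. The groups do not overlap in any gene but BTG1, and only MBNL2 is higher in miR372_3p.

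Counts were tested with edgeR's quasi-likelihood test over all 12396 genes with Benjamini-Hochberg adjustment, and a gene passed at an adjusted p under 0.05. Values are CPM, counts scaled to a TMM-adjusted library size of 1000000, and log2 fold changes are of miR372_3p over Control with their standard error. Total counts over the named genes ran from 51072581 to 60070397 in the miR372_3p libraries and from 46851245 to 47890069 in the Control libraries. Control replicate 3 stood apart from the other Control libraries on the second principal component (11.0% of the variance, at 23.26 against −16.22 and −6.77). It was the lowest Control library for 5 of the 8 genes and the highest for 2. Without it the log2 fold changes were −1.24 for DAZAP2, −1.21 for MBD2, −0.90 for TXNIP, −0.79 for CD44, −0.38 for DKK1, −0.43 for TNFAIP1, −0.076 for BTG1 and 0.55 for MBNL2, with the same calls. Of 11 liver markers listed, 4 were measured, and others, such as ALB and HNF4A, were not analysed here. Among the 4, KRT8 and KRT18 rose while SERPINA1 fell, and the summed level of the 4 was 2374 to 2466 FPKM in miR372_3p and 1134 to 1226 FPKM in Control libraries. Of 12 markers of blood, endothelial and stromal cells, 5 were measured, with a summed level of 74.5 to 77.8 FPKM in miR372_3p and 60.5 to 69.0 FPKM in Control libraries. COL1A1 and PDGFRB rose among them, and the part of either marker list in the results was not tested. In bulk RNA, fewer cells expressing a gene and less RNA per cell cannot be told apart.

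DAZAP2 codes for a small proline-rich protein, named for its binding to the germ cell protein DAZ, that also binds the kinase HIPK2 and TCF factors of the Wnt pathway. It had 63.6, 66.1 and 63.9 CPM in miR372_3p replicates 1 to 3, against 149, 156 and 153 CPM in Control replicates 1 to 3. The lowest Control library was far above the highest miR372_3p library, and each group was tight. The mean was 64.5 ± 1.39 CPM in miR372_3p and 153 ± 3.46 CPM in Control (SD, n = 3 each), and the log2 fold change was −1.24 ± 0.040 (edgeR adjusted p = 2.04e-08, 95% confidence interval −1.33 to −1.16). It lay at the percentile 2.08 of log2 fold changes over all genes. DAZAP2 shares 486 nt of exon with SMAGP on the opposite strand, and the library kit does not mark strand. SMAGP rose (0.45 ± 0.110, adjusted p = 0.00645), with 14.2 ± 1.93 CPM in miR372_3p and 10.4 ± 0.804 CPM in Control (SD, n = 3 each).

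Among 4 partners and interactors listed for DAZAP2, HIPK2 (0.026 ± 0.040) and TAB2 (−0.054 ± 0.047) did not pass. The transcription factor gene TCF7L2 rose (0.37 ± 0.075) and SOX12 fell (−0.29 ± 0.052).

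MBD2 binds methylated CpG dinucleotides and recruits the NuRD complex, which deacetylates histones and remodels nucleosomes. Its level was 28.4, 30.2 and 27.8 CPM in miR372_3p replicates 1 to 3 and 65.7, 67.4 and 56.0 CPM in Control replicates 1 to 3. Control replicate 3 was the lowest Control library and still far above every miR372_3p library. The log2 fold change was −1.13 ± 0.072 (edgeR adjusted p = 1.22e-06, 95% confidence interval −1.29 to −0.97), and the mean was 28.8 ± 1.24 CPM in miR372_3p and 63.0 ± 6.18 CPM in Control (SD, n = 3 each).

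Other methyl-CpG binders were also measured. MBD1 (0.074 ± 0.052), MBD3 (−0.061 ± 0.036) and MBD4 (−0.062 ± 0.068) did not pass. Of 14 listed relatives and partners of MBD2, 5 fell (35.7%, against 27.7% of all genes) and 2 rose (14.3%, against 26.8%). Among those that fell were the histone chaperone gene RBBP4 (−0.44 ± 0.035), the deacetylase gene HDAC1 (−0.28 ± 0.036), the maintenance methyltransferase gene DNMT1 (−0.21 ± 0.036) and the NuRD helicase gene CHD4 (−0.19 ± 0.032). The NuRD subunit gene GATAD2A rose (0.43 ± 0.059), and MTA1 rose by less (0.17 ± 0.066, adjusted p = 0.0466), a call lost without any of 5 libraries (adjusted p up to 0.174).

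TXNIP, an arrestin-like protein that binds thioredoxin and limits glucose uptake, was the least abundant of the 8. It had 155, 132 and 156 counts in miR372_3p replicates 1 to 3 and 241, 224 and 278 counts in Control replicates 1 to 3, or 2.58, 2.61 and 2.78 CPM against 5.13, 4.81 and 5.73 CPM. The groups did not overlap, although the miR372_3p libraries were the deeper. The log2 fold change was −0.97 ± 0.142 (edgeR adjusted p = 0.000295, 95% confidence interval −1.29 to −0.65), with the widest interval of the 8 genes. On the log2(FPKM + 1) scale, which understates changes of low genes, it was −0.51.

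TXNIP is transcribed under MLXIP (MondoA) and MLX when glucose metabolites rise. MLXIP rose (0.21 ± 0.050) and MLX fell (−0.28 ± 0.042). The thioredoxin gene TXN fell (−0.26 ± 0.060) while TXNRD1, the reductase that recycles it, rose (0.48 ± 0.055). ARRDC3, an alpha-arrestin related to TXNIP, rose (0.68 ± 0.080), opposite to TXNIP, and its relative ARRDC2 had a log2 fold change of 0.32 ± 0.152 that did not pass.

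CD44 is the main cell surface receptor for hyaluronan and is made in many splice forms. It had 264, 266 and 257 CPM in miR372_3p replicates 1 to 3, against 453, 456 and 410 CPM in Control replicates 1 to 3. Every miR372_3p library was well below the lowest Control library, replicate 3. The mean was 262 ± 4.87 CPM in miR372_3p and 440 ± 25.5 CPM in Control (SD, n = 3 each), and the log2 fold change was −0.74 ± 0.046 (edgeR adjusted p = 8.85e-07, 95% confidence interval −0.85 to −0.64). CD44 shares 84 nt of exon with CD44-AS1 on the opposite strand, which was not analysed here.

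Genes around hyaluronan did not move one way. HAS3 (−1.01 ± 0.053), a hyaluronan synthase, and HMMR (−0.62 ± 0.057), a hyaluronan-binding protein of the mitotic spindle, fell. HAS2 rose at a low level (1.00 ± 0.280; 1.67 ± 0.375 CPM in miR372_3p and 0.834 ± 0.247 CPM in Control, SD, n = 3 each), a call lost without miR372_3p replicate 1 (adjusted p = 0.056). Among the linkers of CD44 to actin, EZR rose (0.29 ± 0.039) and MSN rose (0.21 ± 0.064, lost without miR372_3p replicate 2 or Control replicate 1, adjusted p up to 0.0697), and RDX (−0.12 ± 0.045) did not pass. ESRP2, a splicing factor that acts on CD44, did not pass (−0.059 ± 0.061).

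DKK1 is a secreted inhibitor of Wnt signalling that binds the co-receptors LRP5 and LRP6. It had 251, 253 and 255 CPM in miR372_3p replicates 1 to 3 and 328, 328 and 319 CPM in Control replicates 1 to 3. The change was small next to those above but the groups were tight and far from overlapping. The log2 fold change was −0.36 ± 0.033 (edgeR adjusted p = 1.34e-05, 95% confidence interval −0.43 to −0.29). DKK1 was the sole gene of the 8 without a 7mer-m8 or 8mer in its 3′ UTR (850 nt, 1 annotated coding transcript), and it shares 212 nt of exon with PRKG1-AS1 on the opposite strand, which was not analysed here.

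Of 7 measured Wnt genes listed with DKK1, 2 fell, 1 rose and 4 did not pass. The shares that fell (28.6%) and rose (14.3%) stood against 27.7% and 26.8% of all genes. KREMEN1 (−0.49 ± 0.075) and KREMEN2 (−0.82 ± 0.207), receptors that bind DKK proteins, fell. KREMEN2 was at a low level, with 2.05 ± 0.523 CPM in miR372_3p and 3.63 ± 0.332 CPM in Control (SD, n = 3 each). AXIN2, a feedback target of Wnt signalling, rose to 56.5 ± 0.921 CPM in miR372_3p, against 29.5 ± 1.95 CPM in Control (SD, n = 3 each; 0.94 ± 0.054, edgeR adjusted p = 6.26e-07). LRP5 (−0.14 ± 0.060), LRP6 (0.040 ± 0.046) and CTNNB1 (0.056 ± 0.047), the gene for beta-catenin, did not pass, and nor did DKK3 (0.35 ± 0.311).

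TNFAIP1 is an adaptor of the CUL3 ubiquitin ligase, reported to direct small GTPases to degradation. Its level was 78.6, 78.3 and 79.0 CPM in miR372_3p replicates 1 to 3 and 107, 105 and 90.6 CPM in Control replicates 1 to 3. The miR372_3p libraries were nearly equal, and the spread came from Control replicate 3. The log2 fold change was −0.36 ± 0.061 (edgeR adjusted p = 0.000817, 95% confidence interval −0.50 to −0.22), from −0.31 without Control replicate 1 to −0.43 without Control replicate 3.

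The paralogs of TNFAIP1 differed: KCTD10 rose (0.42 ± 0.038) and KCTD13 (−0.24 ± 0.100) did not pass. CUL3 (0.075 ± 0.040) and RBX1 (−0.080 ± 0.044), the ligase's core, did not pass. RHOA (−0.15 ± 0.048, edgeR adjusted p = 0.022) and RHOB (−0.13 ± 0.042, adjusted p = 0.0218) fell slightly. These calls were lost without any of 4 libraries in RHOA and any of 3 in RHOB (adjusted p up to 0.0941 and 0.0983).

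BTG1, an antiproliferative protein that recruits the CNOT7 and CNOT8 deadenylases to messages, did not pass although it held an 8mer. It had 57.7, 58.1 and 64.2 CPM in miR372_3p replicates 1 to 3 and 63.7, 62.7 and 66.6 CPM in Control replicates 1 to 3. The groups overlapped through miR372_3p replicate 3. The log2 fold change was −0.10 ± 0.055 (edgeR adjusted p = 0.144), with a 95% confidence interval of −0.22 to 0.021 that leaves out a fall of the size seen in DKK1. Without miR372_3p replicate 3 it was −0.15 with an adjusted p of 0.0466, so that library decides the call. BTG1 shares 503 nt of exon with LINC01619 on the same strand and 325 nt with AC025164.1 on the opposite strand, neither analysed here.

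Of 7 measured relatives and partners of BTG1, 3 fell (42.9%, against 27.7% of all genes) and 1 rose (14.3%, against 26.8%). TOB1 (−0.67 ± 0.071) and BTG3 (−0.36 ± 0.084), of the same antiproliferative family, fell, and TOB2 (0.096 ± 0.045) did not pass. CNOT7 rose (0.33 ± 0.075) and CNOT8 (−0.025 ± 0.049) did not pass. CNOT1, the scaffold of the deadenylase complex, fell by little (−0.10 ± 0.036, edgeR adjusted p = 0.0321), a call lost without any of 5 libraries (adjusted p up to 0.112).

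MBNL2, a muscleblind protein that sets alternative splicing and message localisation, was the gene of the 8 that rose. It had 38.8, 38.7 and 39.6 CPM in miR372_3p replicates 1 to 3, against 24.2, 28.9 and 20.6 CPM in Control replicates 1 to 3. The Control libraries spread widely, but the highest of them was below every miR372_3p library. The log2 fold change was 0.67 ± 0.101 (edgeR adjusted p = 0.00037, 95% confidence interval 0.44 to 0.89), 0.80 without Control replicate 2 and 0.55 without Control replicate 3. Its 7mer-m8 lay 195 nt from the end of the 3′ UTR. The paralogs went the other way: MBNL1 (−0.21 ± 0.048; adjusted p = 0.0501 with limma on log2(FPKM + 1)) and MBNL3 (−0.44 ± 0.075) fell. CELF1, a splicing factor often described as opposing muscleblind proteins, rose (0.41 ± 0.043), and RBFOX2 fell (−0.24 ± 0.042).

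**Figure D3:**
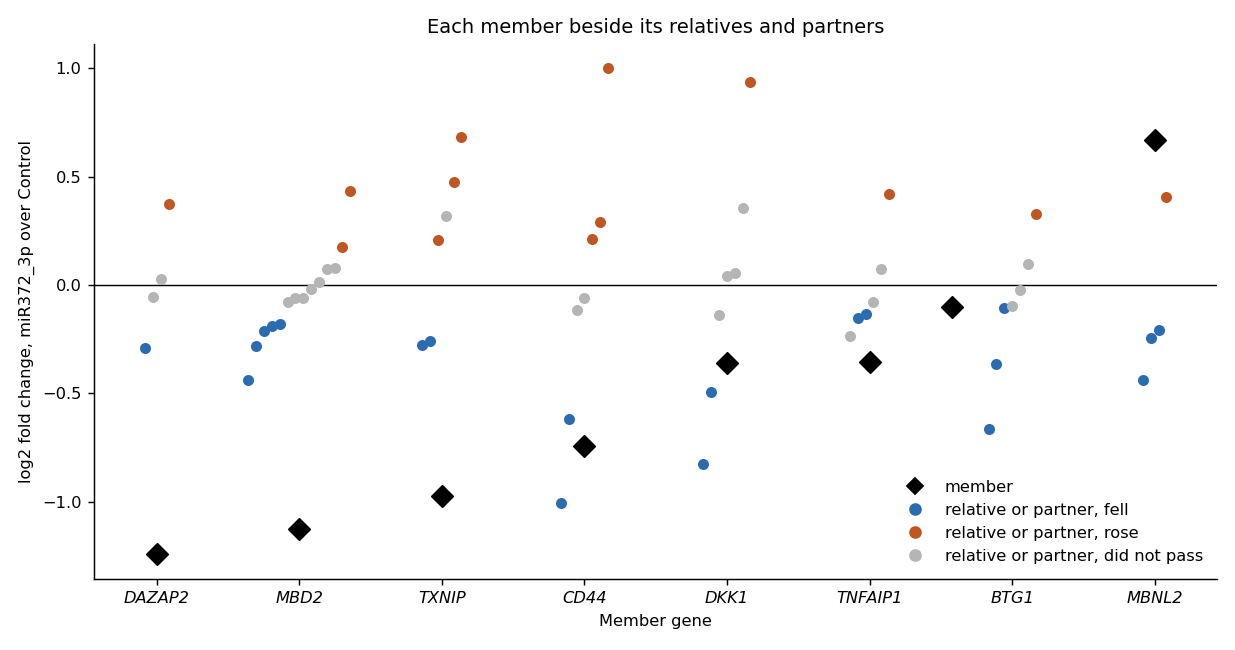
Log2 fold change (y axis) of each of the 8 genes (diamond) beside its listed relatives and partners (dots; BTG1 is drawn to the left of its own, coloured by whether they fell, rose or did not pass). DAZAP2, MBD2, TXNIP and TNFAIP1 lie below every gene of their own list, while MBNL2 lies above the 4 of its list.

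Over all 55 measured relatives and partners, 20 fell (36.4%, against 27.7% of all genes) and 13 rose (23.6%, against 26.8%), with a median log2 fold change of −0.061. The 8 genes' log2 fold changes ran, in the authors' deposited table, from −1.24 for DAZAP2 to 0.67 for MBNL2.

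Other genes published as targets of the family were listed from the literature: 36 genes, of which 33 were measured. Of these, 18 fell (54.5%, against 27.7% of all genes), 10 rose (30.3%, against 26.8%) and 5 did not pass, with a median log2 fold change of −0.20. Such lists hold genes reported as repressed, and this list was chosen with earlier results of these data known. Its direction is therefore not independent evidence. Those with the largest changes were IRF9, TP53INP1, MICA, IGF2BP1, FYCO1, RELA, CDKN1A and ATAD2.

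MICA, a stress ligand of the receptor NKG2D, fell to 11.0 ± 0.346 CPM in miR372_3p, against 42.6 ± 2.34 CPM in Control (SD, n = 3 each; −1.96 ± 0.064, edgeR adjusted p = 2.17e-08). RELA, a subunit of NF-kB, fell (−1.03 ± 0.061), as did the autophagy adaptor gene FYCO1 (−1.03 ± 0.054) and the chromatin ATPase gene ATAD2 (−0.95 ± 0.047). IRF9, part of the interferon response complex, had 1.12, 0.692 and 0.607 CPM in miR372_3p replicates 1 to 3, against 8.99, 2.32 and 2.80 CPM in Control replicates 1 to 3. Its log2 fold change of −2.53 ± 0.511 (edgeR adjusted p = 0.00215) was −1.66 without Control replicate 1. CDKN1A, coding for the cyclin-dependent kinase inhibitor p21, fell at a low level (−0.96 ± 0.142). TP53INP1, a p53-induced stress protein, rose to 13.3 ± 0.373 CPM in miR372_3p, against 3.22 ± 0.492 CPM in Control (SD, n = 3 each; 2.05 ± 0.123). IGF2BP1, an oncofetal RNA-binding protein, also rose at a low level (1.82 ± 0.234). It had 4.01 ± 0.458 CPM in miR372_3p, against 1.14 ± 0.344 CPM in Control (SD, n = 3 each).

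**Figure D4:**
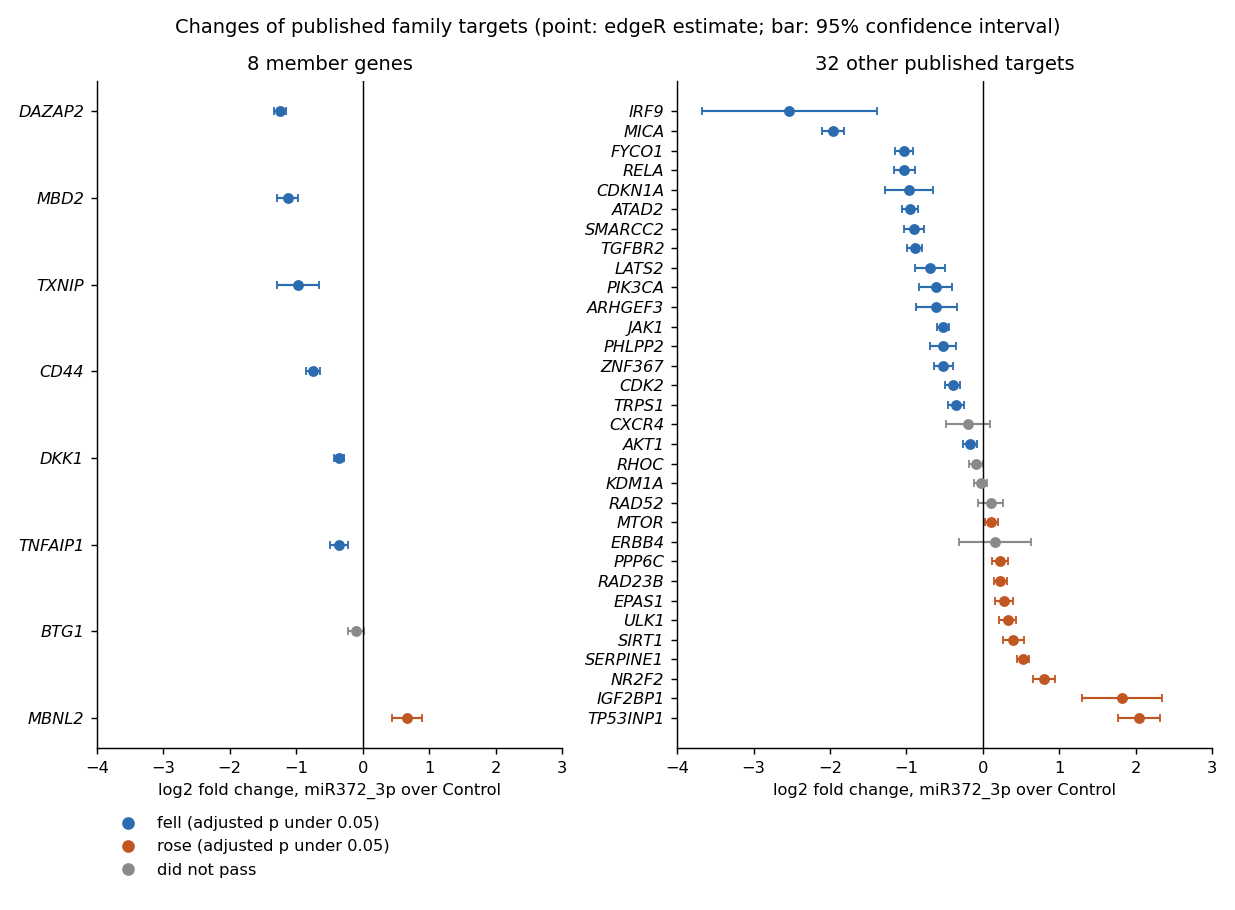
Log2 fold changes with 95% confidence intervals for the 8 genes (left) and for 32 of the other published targets (right), ordered by value. Points are coloured by call: 6 of the 8 and 17 of the 32 fell, and IRF9 has the widest interval.

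The published targets were also counted by class of seed match. All 8 of the other targets whose best match was an 8mer fell: LATS2, TGFBR2, RELA, MICA, PIK3CA, JAK1, ZNF367 and TRPS1, which are named here after their values were seen. Over all searched genes with an 8mer, 44.7% fell and 21.1% rose. Among the 8 genes, the 8mer holders CD44 and MBD2 fell and BTG1 did not pass. Of the 15 other targets whose best match was a 7mer-m8, 7 fell, 6 rose and 2 did not pass. Among the 8 genes of this class DAZAP2, TXNIP and TNFAIP1 fell and MBNL2 rose. Over all searched genes of this class, 29.7% fell and 27.2% rose. With a 7mer-A1 as best match, 1 of 4 other targets fell, 1 rose and 2 did not pass, and DKK1 fell. Over all searched genes with a 7mer-A1 as best match, 31.4% fell and 26.5% rose. With a 6mer, 1 of 2 fell and 1 rose, against 26.8% and 30.4% of all searched genes of that class. Of 4 other targets without a match, 1 fell, 2 rose and 1 did not pass. Over all searched genes without a match, 26.2% fell and 26.7% rose. LATS2, a Hippo pathway kinase and a well known target of miR-372, fell to 16.6 ± 1.59 CPM in miR372_3p, against 26.7 ± 1.91 CPM in Control (SD, n = 3 each; −0.69 ± 0.087, edgeR adjusted p = 0.000114). TGFBR2, the type II TGF-beta receptor, fell to 43.2 ± 0.779 CPM in miR372_3p, against 80.2 ± 2.10 CPM in Control (SD, n = 3 each; −0.89 ± 0.044).

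Over all searched genes, 221 of 494 with an 8mer fell (44.7%, Clopper-Pearson 95% interval 40.3 to 49.2%) and 21.1% rose. Among 7244 genes without any match, 26.2% fell and 26.7% rose. Of 2619 genes with a 7mer-m8 as best match, 29.7% fell and 27.2% rose. The intervals cover counting error only, and 3′ UTRs were longer with a match (median 3509 nt with an 8mer, 2896 nt with a 7mer-m8, 844 nt with none). MBNL2 was thus 1 of 712 genes that rose with a 7mer-m8 as best match, beside 778 such genes that fell.

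**Figure D5:**
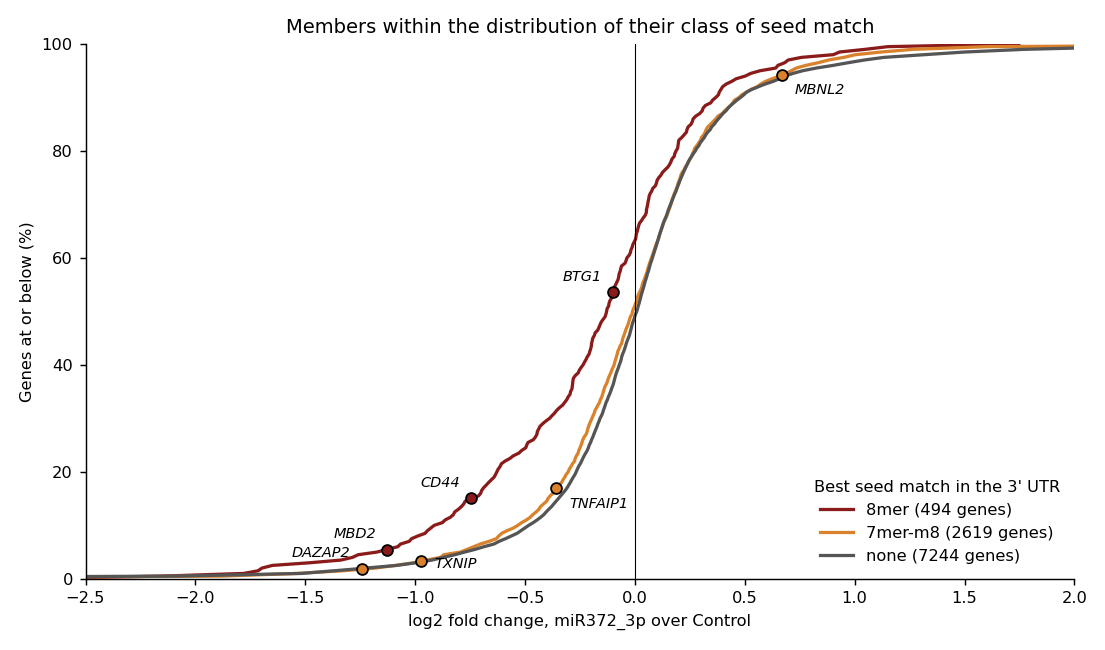
Cumulative share of genes (y axis, %) by log2 fold change (x axis) for genes whose best match is an 8mer, a 7mer-m8 or none, with the 7 genes of those classes as points. The 8mer curve lies left of the other curves through the middle of the plot, and BTG1 sits near its middle, while DAZAP2 and TXNIP sit in the lowest part of the 7mer-m8 curve.

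On the FPKM scale, which allows levels of different genes to be compared per length, the order in miR372_3p was DKK1 (126 ± 1.49), CD44 (78.5 ± 5.07), DAZAP2 (24.9 ± 0.659), TNFAIP1 (20.1 ± 0.289), BTG1 (11.5 ± 0.651), MBNL2 (8.84 ± 0.791), MBD2 (5.09 ± 0.165) and TXNIP (0.816 ± 0.043; FPKM, SD, n = 3). In Control it was DKK1 (161 ± 1.26), CD44 (134 ± 9.53), DAZAP2 (58.0 ± 2.87), TNFAIP1 (25.0 ± 1.97), BTG1 (12.3 ± 0.562), MBD2 (11.0 ± 0.972), MBNL2 (5.06 ± 0.515) and TXNIP (1.60 ± 0.145; FPKM, SD, n = 3). In both groups the ranges of neighbours in this order did not overlap. The order differed between the groups only in MBD2 and MBNL2, which changed places.

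The gene most like each of the 8 in its pattern over the 6 libraries was found by Pearson r of log2(CPM + 1) among the 11696 genes whose mean reached 2 CPM. It was RPS6KA1 for DAZAP2 (r = 1.00), SFN for MBD2 (1.00), NUDCD2 for TXNIP (0.999), SEMA6A for CD44 (1.00), CLVS1 for DKK1 (1.00), ARHGEF3 for TNFAIP1 (0.996), TRAK2 for MBNL2 (0.998) and TRMT10A for BTG1 (0.976). The points share only 2 groups of 3 libraries, so any gene that separated the groups evenly scored high: 1633 genes had r over 0.95 with DAZAP2, against 9 with BTG1.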

How the data were processed

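The authors deposited 1 table. Per the file headers it holds counts and FPKM in 6 libraries, and the authors' log2 fold change with its p-value. Tools named in the submitters' processing notes, without roles, are StringTie 2.2.1, HISAT2 2.0.4 and DESeq2 1.38.3, with build GRCh38. The counting step is not stated in the sources used here. Per the labels' protocols, libraries were made from column-purified total RNA with NEBNext Ultra reagents, which do not mark strand. Columns were matched to samples by title, and 0 per-sample columns were left out. The deposited counts are not normalized, and the deposited FPKM values, scaled to length and depth by the authors, served for levels.

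Of 14006 rows, 1610 loci without a gene name (2.64 to 3.63% of counts) entered neither library sizes nor tests. The main test, over the other 12396 genes, was the quasi-likelihood F-test of edgeR 4.0.16 (R 4.3.3; TMM factors, 2 groups, no block). The test was checked on simulated data. No row has under 208 counts over the 6 libraries, so lower genes are not analysed here. Chi-square over its degrees of freedom was 6.86 to 38.6 between replicates of a group, so no library was counted as a copy of another. Alternatives used DESeq2 1.42.0 and limma 3.58.1. Seed matches were sought in 3′ UTRs of at least 50 nt from GENCODE 29, and duplex energies came from RNAduplex 2.7.2. The 8 genes, the lists and the rule for named genes (the 8; of the other published targets the 8 that changed most; relatives past the threshold) were chosen with earlier results of these data known. Some single genes of the lists are not reported here by name, and the counts over the lists include them.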

Additional observations from a re-analysis of the deposited data

How the results depend on the processing

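The 8 genes were refitted under 13 alternatives: RLE factors, library size alone, DESeq2, a minimum mean of 2 CPM, the unnamed loci kept in, limma on log2(FPKM + 1), a replicate block, and each library left out. Their directions held in all of these, and calls held in all but 1: BTG1 passed without miR372_3p replicate 3 (−0.15, adjusted p = 0.0466), a fit that rests on fewer libraries, and its other adjusted p ran up to 0.385. With 1 library left out, log2 fold changes ran from −1.26 to −1.22 for DAZAP2, −1.21 to −1.07 for MBD2, −1.02 to −0.90 for TXNIP, −0.79 to −0.71 for CD44, −0.38 to −0.35 for DKK1, −0.43 to −0.31 for TNFAIP1, −0.15 to −0.073 for BTG1 and 0.55 to 0.80 for MBNL2. Over all genes, 2961 to 3553 then fell and 2800 to 3546 rose. The replicate block gave 3428 falls and 3381 rises. The numbers did not pair the libraries (correlations of same-numbered deviations −0.139, −0.072 and 0.113). When the search was limited to a 3′ UTR length of 200 to 3000 nt, 54.3% of genes with an 8mer fell and 13.8% rose. With a 7mer-m8, 33.5% fell and 22.4% rose, and with a 7mer-A1, 35.2% and 22.5%. Without any match, 26.4% fell and 26.5% rose, and over all genes of that length 28.6% and 25.6%. The cause of these shares was not tested. Depth limits TXNIP most, with 132 to 278 counts a library.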

Other observations

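Many matches to the miR-372-3p seed in 3′ UTRs lie in 1 recurrent sequence. The most common context of AGCACTT was a form of 24 bases that occurred 890 times without a change and that recurs in Alu repeats. With up to 4 mismatches it took in 1882 of the 4543 matches that were 8mers or 7mer-m8 (41.4%), but 0 of the 12 such matches in the 8 published targets. The split by this form was made after the data were seen. Of 964 genes whose best match was a 7mer-m8 and whose matches all had this form, 25.6% fell and 25.7% rose, with a median log2 fold change of 0.0066. Of 1655 genes with a 7mer-m8 outside it, 32.1% fell and 28.0% rose, with a median of −0.025. Matches outside the form had flanks with a median of 60.0% A and T and a median duplex energy of −14.2 kcal/mol, close to the 60.0% and −13.9 kcal/mol of the 12 matches in the published targets.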
